A study of Mus musculus with 9 samples.

Results

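Complement components and regulators were followed as 8 genes listed by symbol, out of 22075 genes in the count files. They were the 3 chains of C1q (C1qa, C1qb and C1qc), the components C4b and C3, the soluble C1 inhibitor Serping1, and the membrane regulators Cd55 and Cd59a. All 8 were found, each with counts in all 9 libraries. The mRNAs came from translating ribosome affinity purification (TRAP), in which ribosomes tagged with GFP are immunoprecipitated and the attached mRNAs are sequenced. All mice were of the strain Aldh1L1 JD130, carried the transgene tg:Aldh1L1-L10aGFP and were 2 months old. This transgene is a bacterial artificial chromosome that places ribosomal protein L10a fused to GFP under the promoter of Aldh1l1, a gene used as an astrocyte marker. Whole astrocyte TRAP (3 libraries) was made from brain, with 1 brain per library after removal of the choroid plexus. Endfeet TRAP (6 libraries) was made from purified brain vessels, on which perivascular astrocyte endfeet remain attached, with the vessels of 8 mice pooled for each library. Cycloheximide, which halts translating ribosomes, was present in the buffers of the vessel purification. The comparison addresses which mRNAs were more abundant in TRAP from purified vessels than in TRAP from brain. The endfeet libraries also held mRNAs of vessel cells, described below, so a higher level is not by itself a level in endfeet.

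Complement is a cascade of proteins that tags surfaces for removal and can end in a pore through the target membrane. In the classical pathway, C1q binds the target and activates the proteases C1r and C1s, which cleave C4, and the enzyme assembled from C4 and C2 cleaves C3. C1 inhibitor blocks C1r and C1s, Cd55 speeds the decay of the enzymes that cleave C3, and Cd59 prevents assembly of the membrane pore. In brain, C1q is known mainly as a product of microglia and macrophages, while C4, C3 and C1 inhibitor can be made by astrocytes and by cells of vessels and meninges, and C1q and C3 take part in the removal of synapses.

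The 3 C1q genes lie side by side on chromosome 4 of mm10, all on the minus strand (C1qb at 136880129 to 136886187, C1qc at 136889804 to 136893065, and C1qa at 136895917 to 136898803). The starts of C1qb and C1qc are shown because the products of these neighbours are chains of a single protein. Their shares of the C1q counts nonetheless differed between endfeet libraries, most in library 6. Each window runs from 250 bases before to 50 bases after the start of the gene, on its own strand, from RefSeq on GRCm38.p6. Capitals mark every match to GAGGAA, the core of sites for the myeloid factor PU.1, or to TGCTGA, the core of a MAF site, on either strand (TTCCTC and TCAGCA on the other). C1qb is at chr4:136886151-136886450 and C1qc at chr4:136892865-136893164.
C1qb: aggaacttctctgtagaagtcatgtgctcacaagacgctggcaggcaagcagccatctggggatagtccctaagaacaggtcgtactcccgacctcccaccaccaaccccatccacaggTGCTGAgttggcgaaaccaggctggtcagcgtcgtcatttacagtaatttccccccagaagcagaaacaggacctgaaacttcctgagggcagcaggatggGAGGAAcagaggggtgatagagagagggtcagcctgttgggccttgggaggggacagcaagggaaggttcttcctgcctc
C1qc: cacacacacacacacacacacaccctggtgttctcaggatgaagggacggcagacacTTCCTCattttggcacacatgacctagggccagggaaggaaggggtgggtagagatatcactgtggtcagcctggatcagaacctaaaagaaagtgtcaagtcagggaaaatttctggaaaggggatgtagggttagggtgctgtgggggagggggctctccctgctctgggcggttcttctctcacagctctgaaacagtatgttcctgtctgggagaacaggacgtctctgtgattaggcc
C1qb held 1 match to each motif and C1qc held 1 match to the PU.1 core, on the opposite strand. Among all 32851 windows of this length, 28.3% held the PU.1 core and 19.5% the MAF core, so that both are common. Windows were found for 5 of the 8 genes. C3 held 1 match to the MAF core, Cd55 2 matches to it, and Cd59a 1 match to the PU.1 core.

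The endfeet libraries were shallower and far more variable than those of whole astrocytes. Gene totals were 35956972 to 43487888 counts in whole astrocyte libraries and 2318745 to 13445661 in endfeet libraries. The detection floor, set at 3 counts, was 0.069 to 0.0834 CPM (counts scaled to a common library total) in the former and 0.2231 to 1.2938 CPM in the latter. It covers counting error only. The common dispersion, a measure of the spread between libraries, was 0.01407 in whole astrocytes and 0.7241 in endfeet. Endfeet library 6 was the shallowest, and endfeet library 1 had the largest sum of choroid plexus and ependyma markers, most of it from Ttr. By the numbers their files carry, endfeet libraries 1 to 3 belong to an earlier series, and endfeet libraries 4 to 6 and all whole astrocyte libraries to a later one. What these numbers stand for is not stated. The earlier series holds no whole astrocyte library.

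All 8 complement mRNAs were higher in endfeet TRAP than in whole astrocyte TRAP (edgeR's quasi-likelihood test over 14403 genes with Benjamini-Hochberg adjustment), and none was lower. Over all genes tested, 20.7% were higher and 13.9% lower. The 8 were chosen with earlier results of these data known, so comparisons with all genes describe them and do not test them as a group. The median log2 fold change of the 8 was 4.36, against 0.10 over all genes tested. Each of the 8 had a log2 fold change of at least 3, which 10.6% of all genes tested had together with a call. For 6 of the 8 genes, all endfeet libraries were above all whole astrocyte libraries, which was so for 18.9% of all genes tested. The exceptions were C1qa and C1qb, both because of endfeet library 6. In these bulk samples, fewer cells of a type and less RNA per cell cannot be told apart. All values below are CPM after normalization by the trimmed mean of M values (TMM), and errors are SD over libraries unless named otherwise.

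**Figure D1:**
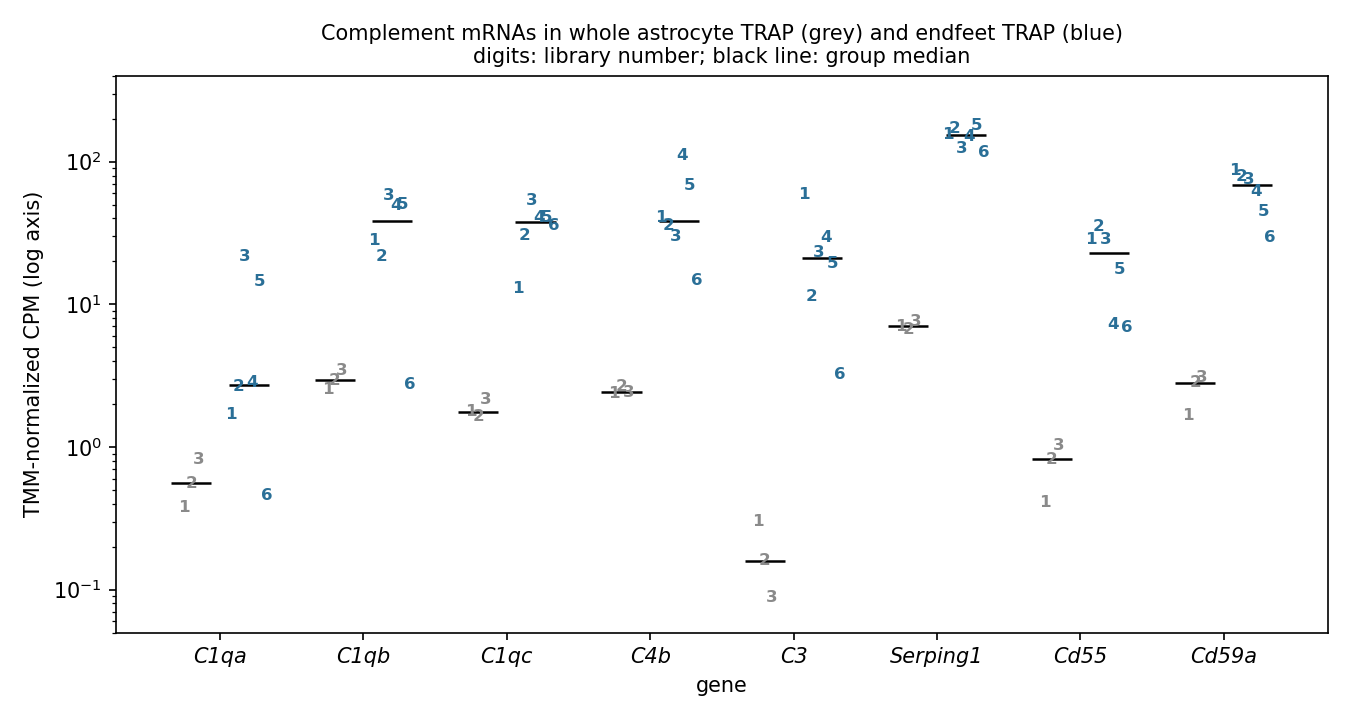
TMM-normalized CPM (log axis) of the 8 complement mRNAs in each library, with digits for the library number, grey for whole astrocyte TRAP (n = 3), blue for endfeet TRAP (n = 6) and a black line at the group median. Endfeet library 6 lies within or beside the grey values for C1qa (0.457) and C1qb (2.74), whereas all endfeet values of Serping1 lie between 116 and 178.

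C1qa, C1qb and C1qc encode the chains that together form C1q, the recognition molecule of the classical pathway. C1qa was at 0.379, 0.556 and 0.812 CPM in whole astrocyte libraries 1 to 3 and at 1.69, 2.64, 21.7, 2.82, 14.5 and 0.457 CPM in endfeet libraries 1 to 6. Endfeet libraries 3 and 5 stood well above the other four, and endfeet library 6, with 1 count, lay within the whole astrocyte range. The log2 fold change was 3.65 (SE 1.3, adjusted p = 0.0445). This call was lost without endfeet library 3 (adjusted p = 0.0874) or 5 (0.0807), and without any single whole astrocyte library (0.124 to 0.162).

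C1qb was the most abundant chain in whole astrocytes, at 2.52, 2.94 and 3.42 CPM. In endfeet TRAP it was at 28, 21.5, 57.7, 49 and 50.4 CPM in libraries 1 to 5 and at 2.74 CPM in library 6. The first 5 libraries were all above every whole astrocyte library, and library 6, with 6 counts, overlapped them. The difference was 3.56 on the log2 scale (SE 0.831, adjusted p = 0.00502).

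C1qc was at 1.76, 1.64 and 2.15 CPM in whole astrocytes and at 13, 30.6, 53.8, 40.3, 40.7 and 35.6 CPM in endfeet. Here the groups did not overlap and the lowest endfeet library was library 1, while library 6 was close to the median of 38 CPM. The groups differed by 4.26 on the log2 scale (SE 0.626, adjusted p = 1.86e-04).

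The proportions of the 3 chains were therefore compared within each library. In whole astrocytes, C1qa took 8.14 to 12.7% of the counts of the 3 chains, C1qb 53.6 to 57.2% and C1qc 32 to 37.8%. In endfeet the shares ranged from 1.18 to 16.3%, from 7.06 to 65.6% and from 30.4 to 91.8%. The range over endfeet libraries was thus wider for each chain. In endfeet library 6, C1qc had 78 of 85 counts, or 91.8% (95% Wilson interval 84 to 96%). The intervals cover counting error only, since the cDNA was amplified and the reads carried no molecular identifiers. No window of 50 bases in any of these 3 transcripts occurred exactly in a transcript of another gene. Near matches and copies outside annotated transcripts were not searched for.

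**Figure D2:**
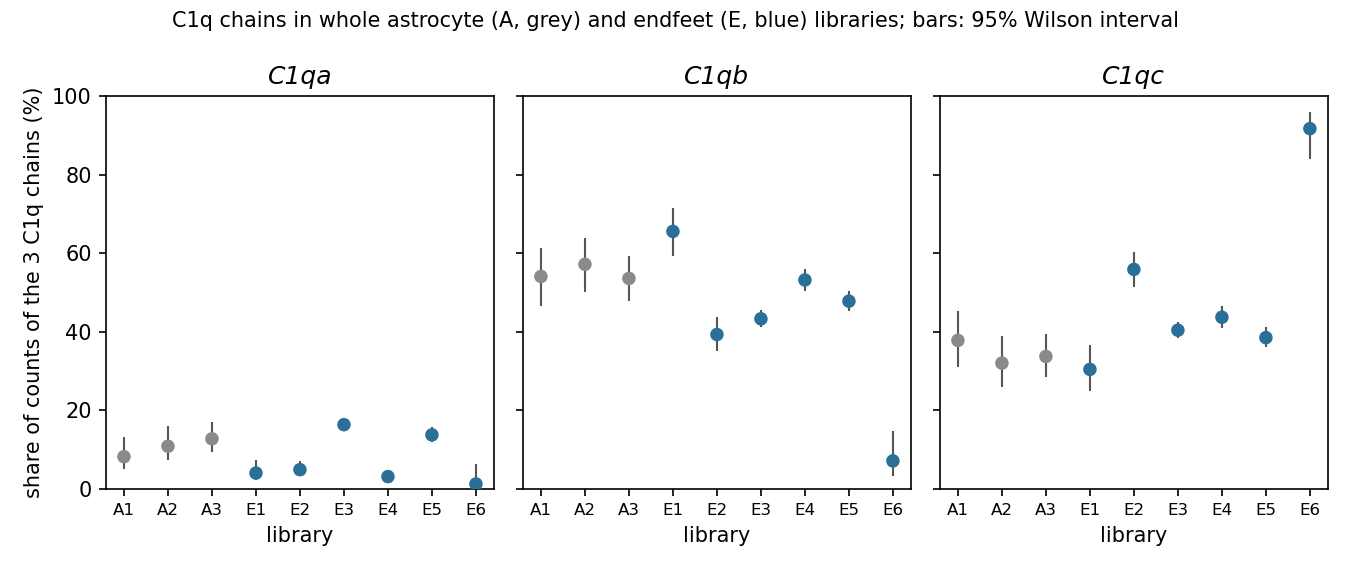
Share of each chain (%) in the summed counts of C1qa, C1qb and C1qc, by library, for whole astrocyte TRAP (A1 to A3, grey) and endfeet TRAP (E1 to E6, blue), with 95% Wilson intervals as bars. C1qc makes up 91.8% in endfeet library 6 and at most 37.8% in whole astrocytes.

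C4b and C3 carry the cascade onward, since fragments of both attach covalently to the target. C4b (chromosome 17, 34728380 to 34743882, minus strand) was at 2.38, 2.65 and 2.42 CPM in whole astrocytes and at 40.4, 35.9, 29.8, 111, 67.9 and 14.6 CPM in endfeet. Endfeet libraries 4 and 5 were highest, library 6 was lowest, and the groups did not overlap. On the log2 scale the difference was 4.33 (SE 0.707, adjusted p = 4.32e-04). Of the 5330 windows of 50 bases in the C4b transcript, 1875 (35.2%) also occurred in C4a, its neighbouring paralog, and reads from these were removed when they aligned more than once. The C4b counts therefore rest mainly on the other windows. Alignment allowed mismatches, so reads from windows nearly alike in C4a may have been removed too. C4a was not analysed here.

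C3, the component on which all pathways meet, had the largest fold change of the 8. It lies on chromosome 17 (57203970 to 57228136, minus strand), where the annotation also places Mir6978. Whole astrocyte libraries had 11, 6 and 4 counts, or 0.298, 0.159 and 0.0878 CPM, each above the floor of 3 counts. Endfeet libraries had 58.8, 11.3, 23.1, 29.6, 19.3 and 3.2 CPM, and library 6 had 7 counts. The groups did not overlap, with library 1 highest and library 6 lowest. The log2 fold change was 7.02 (SE 1.12, adjusted p = 3.60e-04), and its 95% interval ran from 4.83 to 9.22, so that its size is known only coarsely. Library 1 was also highest in the summed markers of ependyma and choroid plexus (89300 CPM, against 6870 to 39900 CPM in the other endfeet libraries). Ttr alone made up 86800 CPM of the sum in library 1. Foxj1, Kl, Folr1 and Tmem212 were also highest there, while Kcnj13 and Ccdc153 were highest in library 2 and Rarres2 in library 6. The summed markers of fibroblasts (1800 CPM), blood (143 CPM) and oligodendrocytes (567 CPM) were also highest in library 1. So were 24.4% of all genes tested. The part of any of these cell types in the difference of C3 was not tested.

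Serping1, which encodes C1 inhibitor, was the most abundant of the 8 in both groups and the steadiest in endfeet. It lies on chromosome 2 (84765387 to 84775444, minus strand). Whole astrocyte libraries were at 7.03, 6.7 and 7.62 CPM and endfeet libraries at 156, 172, 124, 150, 178 and 116 CPM. The groups were far apart, and the highest endfeet library was 1.54 times the lowest. On the log2 scale the groups differed by 4.39 (SE 0.34, adjusted p = 1.1e-06), the smallest standard error of the 8. A second coding transcript had 0.784 to 0.87 counts for each count of the first in whole astrocytes and 0.807 to 0.858 in endfeet, so that both groups overlapped in this ratio. A read in shared exons appears to be counted for each transcript, since another coding transcript of Cd59a had a ratio of 1.0 in every endfeet library. The ratio therefore does not measure how Serping1 mRNA was split between its transcripts.

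Cd55 and Cd59a encode proteins of the cell surface that protect a cell from its own complement. Cd55, decay accelerating factor (chromosome 1, 130439027 to 130462744, minus strand), was at 0.406, 0.821 and 1.03 CPM in whole astrocytes. Endfeet libraries were at 28.3, 35.2, 28.4, 7.17, 17.6 and 6.86 CPM. All were above the whole astrocyte libraries, and libraries 1 to 3 were all above libraries 4 to 6. The log2 fold change was 4.76 (SE 0.888, adjusted p = 0.00113), and 3.67 (SE 0.766, adjusted p = 0.0085) within the later number series alone. The order of the endfeet libraries is that of the transcript that stood for Cd55. Another coding transcript had 180 counts in library 5 and 162 in library 3, and a transcript with a retained intron had 296 and 263. Library 5 had the smaller total after TMM scaling, so neither of these transcripts kept the order.

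Cd59a (chromosome 2, 104095801 to 104115354, plus strand) was at 1.65, 2.81 and 3.05 CPM in whole astrocytes and at 86.2, 79.3, 75.5, 61.7, 44.8 and 29.2 CPM in endfeet. The groups did not overlap, and here too endfeet libraries 1 to 3 were all above libraries 4 to 6. The log2 fold change was 4.65 (SE 0.551, adjusted p = 3.52e-05), and 4.05 (SE 0.51, adjusted p = 0.00109) within the later series. Mean levels were 30.6 and 10.5 CPM for Cd55 and 80.3 and 45.2 CPM for Cd59a in endfeet libraries 1 to 3 and 4 to 6. This order of the series was found in 5.82% of all genes tested and the reverse order in 5.04%, and neither was found for the other 6 complement genes. Within the later series alone, C1qa missed the threshold (adjusted p = 0.061 at a log2 fold change of 3.22), and the others passed it.

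Both membrane regulators have a close copy in the mouse genome. Cd55b, which shares 331 of the 2484 windows of 50 bases in the Cd55 transcript, had 0 counts in all 9 libraries. Cd59b, which shares 70 of the 1757 windows in the Cd59a transcript, was at 0.147 ± 0.0576 CPM (SD, n = 3) in whole astrocytes and at 0.427 ± 0.431 CPM (SD, n = 6) in endfeet and was too low to be tested. Cd55 was read less uniformly than Serping1. A transcript of Cd55 with a retained intron had 0.533 to 0.681 counts for each count of the main transcript in whole astrocytes, 0.0667 to 1.64 in endfeet, and more counts than the main one in endfeet libraries 4 and 5. Here too, reads in shared exons may be counted for both transcripts. The antisense gene Gm16083 overlaps Cd55, and whether reads were counted by strand is not stated, so reads from these 2 genes cannot be told apart.

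The 8 genes were ordered by level per length of transcript, as CPM per kb of exon. In whole astrocytes the order was Serping1 (4.03 ± 0.263, SD, n = 3), C1qb (2.72), C1qc (1.54), Cd59a (1.39), C1qa (0.56), C4b (0.461), Cd55 (0.297) and C3 (0.0353). Neighbours in this order overlapped for C1qc and Cd59a and for C1qa and C4b. In endfeet it was Serping1 (84.4 ± 14.2, SD, n = 6), Cd59a (34.8), C1qb (32.1), C1qc (29.6), C4b (9.28), Cd55 (8.13), C1qa (7.01) and C3 (4.71). Only Serping1 stood clear of its neighbour there, and the ranges of every later pair overlapped, although C1qc was above C4b in each of the 6 libraries. Serping1 was number 462 of 22075 genes by this level in endfeet and number 8471 in whole astrocytes.

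The spread over endfeet libraries differed widely among the 8. The ratio of the highest to the lowest library was 47.5 for C1qa, 21.1 for C1qb, 18.4 for C3, 7.59 for C4b, 5.13 for Cd55, 4.15 for C1qc, 2.95 for Cd59a and 1.54 for Serping1. In whole astrocytes it was at most 3.39, for C3. The SD of log2(CPM + 1) over endfeet libraries was 0.25 for Serping1 and 1.53 for C1qa, and the median over all genes tested was 0.889. Endfeet library 6 was the lowest for 7 of the 8 genes, C1qc being the exception, and it was the lowest for 28.1% of all genes tested. Without it, all 8 mRNAs remained called, with log2 fold changes of 3.89 for C1qa (adjusted p = 0.0176), 3.81 for C1qb (adjusted p = 1.64e-04) and 7.26 for C3 (adjusted p = 7.73e-05).

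Each gene was then compared with the 9883 genes at 10 CPM or more, by the root mean square difference of log2(CPM + 1), centred on each gene's own mean, over the 6 endfeet libraries. The nearest were Slc35f6 to C1qb (0.27), Cspp1 to C1qc (0.0783), Klhl22 to C4b (0.162), Fam45a to C3 (0.176), Fzd6 to Serping1 (0.0898), Sp2 to Cd55 (0.163) and Sirt2 to Cd59a (0.111). C1qa was below the minimum level. No complement gene was the nearest of another: from C1qb, C1qc ranked 3988 (difference 1.39). Ranks within pairs were taken from the first gene of each pair only. The lowest was that of Cd59a from Cd55, at 345 (0.603). By the difference itself, Serping1 and Cd59a were closest (0.493). These distances rest on 6 libraries and share their depth.

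**Figure D3:**
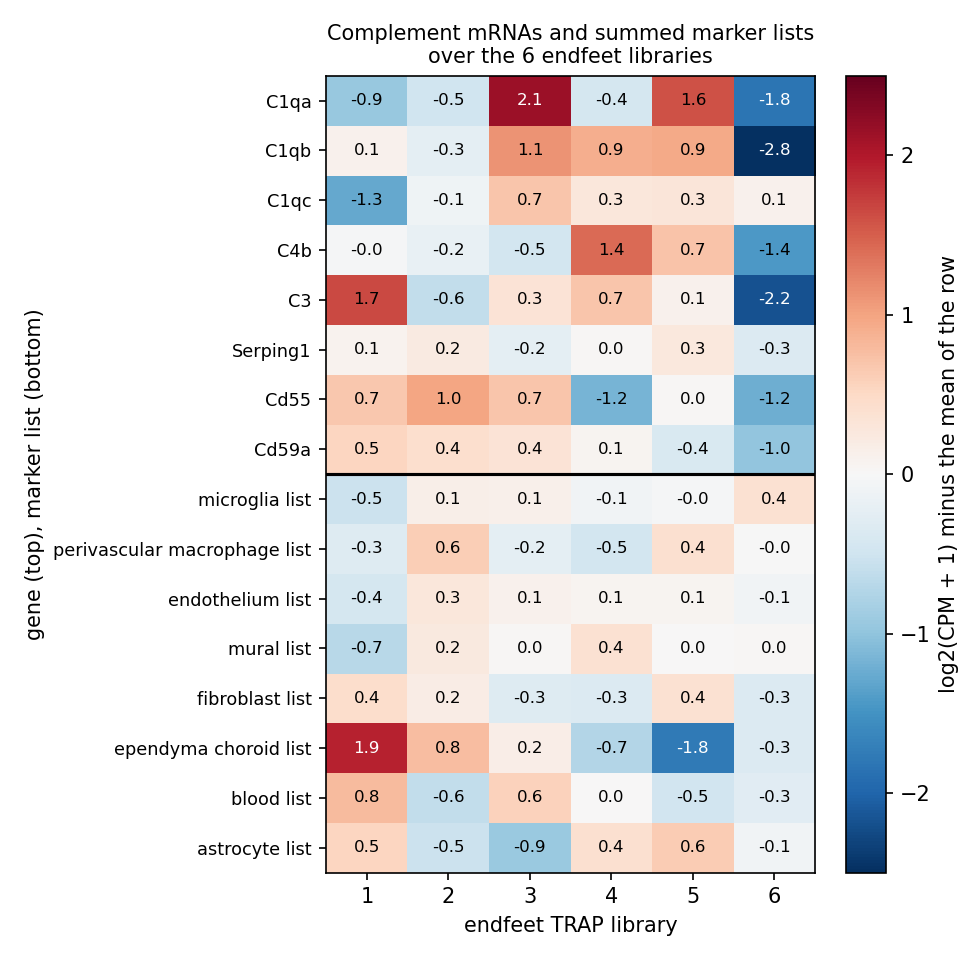
log2(CPM + 1) of each complement gene (top) and of the summed CPM of each marker list (bottom) over the 6 endfeet libraries, minus the mean of the row (red above, blue below). Endfeet library 6 is low for C1qb (-2.84) and C3 (-2.17) and close to the mean for C1qc (0.11). Library 1 is high for C3 (1.66) and for the ependyma and choroid list (1.93). It is also above the mean for the blood (0.79), astrocyte (0.53) and fibroblast (0.43) lists. The sums of the ependyma and choroid list come mostly from Ttr.

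The rest of the pathway was described from a list of 55 complement genes that includes the 8. Of the 54 present in the count files, 32 were abundant enough to be tested, of which 23 were higher in endfeet and 0 lower. Without whole astrocyte library 2 or 3, 13 and 15 were higher. Apart from the 8, 15 of 24 tested genes were higher and 0 lower, with a median log2 fold change of 2.97. Over all genes tested, 20.7% were higher and 13.9% lower. The filter on low counts admits genes abundant in endfeet alone, such as C1ra with 0, 0 and 3 counts in whole astrocytes. Such genes could be called only higher, so these counts are no test of the pathway.

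Of the genes upstream of C4 and C3, the proteases C1ra and C1s1 were nearly absent from whole astrocytes (0.022 ± 0.038 and 0.13 ± 0.0659 CPM, n = 3) and stood at 2.93 ± 3.08 and 4.14 ± 3.42 CPM in endfeet (n = 6). The whole astrocyte libraries had at most a few counts, so no fold is given. Both calls depended on single whole astrocyte libraries, being lost without library 1 or 2 for C1ra (adjusted p = 0.0955 and 0.102) and without any of the 3 for C1s1 (0.0823 to 0.103). The lectin pathway genes Masp2, a protease, Fcna, a ficolin, and Colec12, a scavenger receptor of the collectin family, were also higher. Colec12 was at 5.26 ± 1.42 and 202 ± 50 CPM (log2 fold change 5.26, adjusted p = 9.21e-07), and Masp2 had a log2 fold change of 2.20 (adjusted p = 0.0436). The Masp2 call was lost without any single whole astrocyte library (adjusted p = 0.125 to 0.147) and without endfeet library 3 (0.0507), 4 (log2 fold change 1.66, adjusted p = 0.109) or 6 (0.0649). Fcna was at 0.0704 ± 0.0663 and 2.53 ± 2.65 CPM, with 0, 3 and 6 counts in whole astrocytes, and its call was lost without any single whole astrocyte library (0.102 to 0.14) or endfeet library 5 (0.0518). C2 and Masp1 were not called (log2 fold changes 1.37 and 0.92, adjusted p = 0.332 and 0.687). In the alternative pathway, properdin (Cfp), which stabilizes its enzyme, was higher (log2 fold change 5.06, adjusted p = 0.00314), and Cfb was not called (log2 fold change 0.96, adjusted p = 0.498).

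Of the 7 genes of terminal components, which form the membrane pore, 2 were abundant enough to be tested and neither was called. Hc, which encodes C5, was at 0.485 ± 0.127 CPM in whole astrocytes and 3.53 ± 4.6 CPM in endfeet (adjusted p = 0.176), and C8g was at 0.948 ± 0.453 and 0.805 ± 0.693 CPM (adjusted p = 0.9). C6, C8a and C8b were at 0 in all endfeet libraries, which allows up to 0.2231 to 1.2938 CPM. C7 had 14 counts in endfeet library 5 and 0 in the other endfeet libraries, and C9 had 60 counts in endfeet library 2 and 0 in all others.

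The 3 tested soluble regulators of this list were higher, Serping1 among them. Vtn, which binds the forming pore and is also on the mural marker list, had a log2 fold change of 5.80 (adjusted p = 1.59e-06). Clu, another inhibitor of the pore and an abundant astrocyte mRNA, was at 939 ± 134 and 2440 ± 1130 CPM (log2 fold change 1.38, adjusted p = 0.0112). Its call was lost without whole astrocyte library 2 (adjusted p = 0.0888).

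Among the other membrane regulators, Cr1l (log2 fold change 1.99, adjusted p = 0.00727), Csmd1 (2.64, adjusted p = 0.00342) and Csmd3 (3.07, adjusted p = 0.013) were higher, while Csmd2 and Susd4 were not called. The Csmd3 call was lost without any single whole astrocyte library (adjusted p = 0.0596 to 0.0624) and within the later number series (log2 fold change 1.85, adjusted p = 0.0594), and that of Cr1l without whole astrocyte library 2 (0.0681) or 3 (0.0529). Among receptors, the anaphylatoxin receptors C3ar1 (4.74, adjusted p = 0.00431) and C5ar1 (4.64, adjusted p = 0.0147), the integrin subunit Itgb2 (4.27, adjusted p = 0.00956) and Cd93 (10.65, adjusted p = 4.17e-08) were higher. Without whole astrocyte library 2 or 3, C5ar1 (adjusted p = 0.0872 and 0.0772) and Itgb2 (0.0752 and 0.0618) were no longer called. Cd93, known from endothelial cells and first described as a candidate C1q receptor, had 0.401 ± 0.137 CPM in whole astrocytes and 657 ± 153 CPM in endfeet. Itgam, the partner of Itgb2 in the receptor for C3 fragments, had a log2 fold change of 3.19 (adjusted p = 0.0607) and passed the threshold with DESeq2's Wald test (adjusted p = 0.00506), with limma voom (adjusted p = 0.00687) and without endfeet library 1 (0.014) or 6 (0.0271). C1qbp, a mitochondrial protein that binds C1q, was at 97.1 ± 3.61 and 68.1 ± 30.3 CPM (adjusted p = 0.326).

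**Figure D4:**
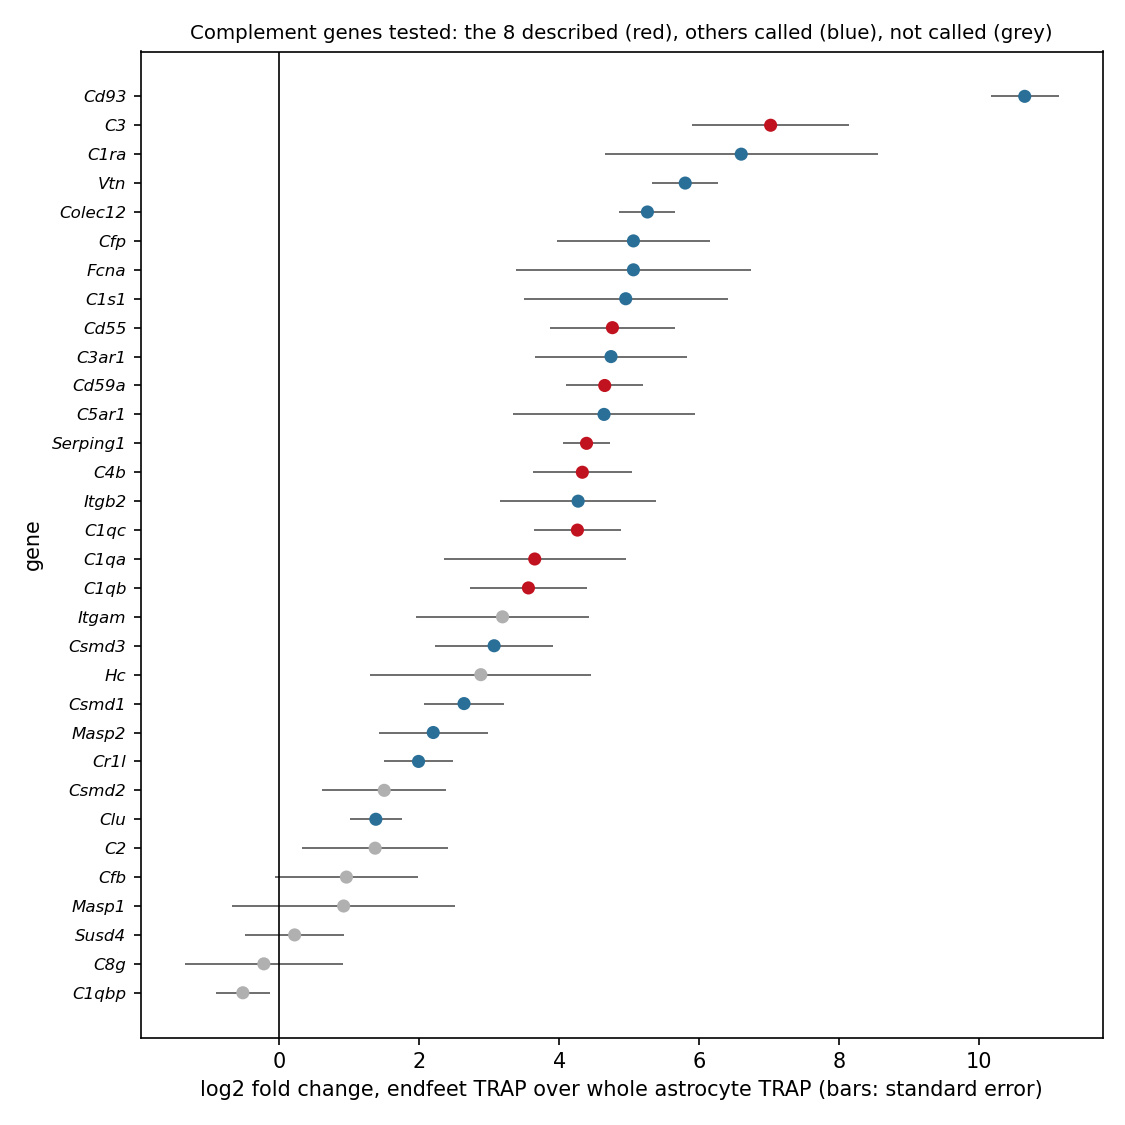
log2 fold change (endfeet TRAP over whole astrocyte TRAP) with standard error for the 32 complement genes tested, in red for the 8 described in full, in blue for others called higher and in grey for genes not called. The 8 lie between 3.56 (C1qb) and 7.02 (C3), and no gene left of 0 is called.

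Markers of microglia, macrophages, vessel cells, fibroblasts, ependyma and choroid plexus, and blood were higher in endfeet, as the complement genes were. For the counts below, 20.7% of all genes tested were higher and 13.9% lower. Of the microglia list, 8 of 14 genes were higher and 1 (Sall1) lower, and its summed level was 105 to 128 CPM in whole astrocytes and 181 to 343 CPM in endfeet. Sall1 alone made up 70.3 to 92.3 CPM of the whole astrocyte sums, and the 13 other genes summed to 33 to 35.7 CPM in whole astrocytes and 175 to 333 CPM in endfeet, a split made after the values were seen. Cx3cr1 rose from 0.923 to 17.9 CPM in the mean (adjusted p = 0.00387), and P2ry12 was at 6.09 and 12.2 CPM (adjusted p = 0.281). Of the perivascular macrophage list, 7 of 9 genes were higher and 0 lower, with sums of 8.92 to 11.1 and 196 to 414 CPM. Its leading genes Mrc1 (0.866 and 127 CPM) and Cd163 (2.03 and 24.3 CPM) both rose (adjusted p = 3.36e-07 and 0.00177). No gene of either list was at 0 throughout a group.

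Within endfeet, the microglia sum was lowest in library 1 (181 CPM), as was C1qc, and highest in library 6 (343 CPM), where C1qa and C1qb were lowest and C1qc was near its median. The macrophage sum was highest in library 2 (414 CPM) and lowest in library 4 (196 CPM). The lists of endothelium, mural cells, fibroblasts and of ependyma and choroid plexus were higher as well, in 12 of 12, 10 of 10, 9 of 10 and 7 of 8 genes. Their sums were 5400 to 8930, 4130 to 8640, 1060 to 1800 and 6870 to 89300 CPM in endfeet, against 7.38 to 8.95, 42.5 to 47.8, 43.5 to 64.1 and 68.5 to 1470 CPM in whole astrocytes. Their defining genes had higher means than in whole astrocytes, with Cldn5 at 268 CPM, Pecam1 at 451, Acta2 at 675, Pdgfrb at 197, Dcn at 301, Lum at 66.9, Ttr at 31300 and Foxj1 at 39 CPM in the endfeet mean. Foxj1 overlapped between the groups. The endothelial gene Ly6c1 was at 0 in whole astrocytes. In the blood list, all 6 tested genes were higher, at 1.65 to 3.07 CPM in sum in whole astrocytes and 53.3 to 143 CPM in endfeet, with Hba-a2 and Camp at 0 in every library. The part of these cell types in the differences of the complement genes was not tested.

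Astrocyte markers were present in both groups, at 36800 to 40900 CPM in sum in whole astrocytes and 10800 to 31800 CPM in endfeet, with 1 of 12 genes higher and 6 lower. Aldh1l1, whose promoter drives the tag, fell from 259 to 49.5 CPM in the mean (adjusted p = 9.39e-04), and Gfap was at 1280 and 889 CPM (adjusted p = 0.329). The 1 gene higher was Aqp4, at 499 and 1590 CPM (adjusted p = 0.00636). Slc1a2 was at 8050 and 15300 CPM (adjusted p = 0.08). It made up most of each endfeet sum, at 6460 to 22600 CPM. Neuron and oligodendrocyte lists had 0 genes higher, with 3 of 8 and 1 of 8 lower. The latter is near the 13.9% lower over all genes tested. Their sums were 3450 to 4000 and 681 to 688 CPM in whole astrocytes and 978 to 1980 and 250 to 567 CPM in endfeet.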

How the data were processed

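Per the labels and the study's methods, polysomal RNA was amplified with the Ovation RNA-Seq kit and sequenced in multiplexed libraries. The authors aligned reads to mm10 with Bowtie, discarded reads with more than 1 alignment and counted overlaps with Ensembl annotation by HTSeq-count (HTSeq 0.5.3 per the submitters' processing notes). Whether counting used strand is not given in the sources used here. The deposited values are raw counts per transcript.

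Of 75466 transcripts, 73164 were matched to GENCODE M21 genes, and the transcript with the largest CPM over all libraries stood for its gene. Groups came from the labels. The 9 libraries were separate brains or pools. Endfeet and whole astrocytes were compared with edgeR 4.0.16 (TMM, filterByExpr, quasi-likelihood test) in R 4.3.3 with Benjamini-Hochberg adjustment over all genes tested and a threshold of 0.05. The standard error is the absolute log2 fold change over the square root of F, and intervals are 1.96 standard errors wide on either side. CPM values use TMM factors, and levels between genes are per kb of exon. The test was tested on simulated data in which both groups had the same dispersion. The simulation therefore did not cover the unequal spread of the real groups. The counts of the wider complement list omit a gene that is not reported here. The members and lists were chosen with earlier results of these data known. Genes named are the 8, all genes of the wider complement list past the threshold, Itgam, close copies, the first 2 genes of each marker list, and the nearest genes by endfeet profile (the 3 nearest were found and the first is given). Other complement genes below the threshold, Sall1, C7, C9, Aqp4, Slc1a2 and the ependyma and choroid genes other than Foxj1 and Ttr were named after their values were seen. Alternatives were DESeq2 1.42.0, limma 3.58.1 (voom), other filters and scalings, number series, a replicate block and the omission of each library. Tables were made in Python 3.11.15 with pandas 2.3.3.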

Additional observations from a re-analysis of the deposited data

Results flagged for a closer look

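Dixon's criterion for 6 samples compares the gap to the nearest library with the group's range, and was applied to CPM without logarithms. Among 24 complement genes examined, no value of the 8 described in full stood apart from its group by it. This scale hides low values: on log2(CPM + 1), C1qb was at -2.84 from its mean in endfeet library 6, with the next library at -0.25. For 2 other genes the highest of the 6 endfeet libraries did. Fcna was at 7.45 CPM in endfeet library 5, with the next library at 2.76 CPM (gap 0.63 of the range). Csmd3 was at 92.7 CPM in endfeet library 1, with the next at 25.4 CPM (gap 0.795). For normally distributed values, chance flags about 1 in 20 groups.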

How the results depend on the processing

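Each result was computed under 20 alternatives, 9 of which leave out 1 library. For the 8 genes, the 15 other complement genes called and Itgam, no log2 fold change reversed. Of the 8 complement genes, 7 kept their call wherever they could be tested, with ranges of 3.31 to 3.81 for C1qb, 3.93 to 4.43 for C1qc, 3.79 to 4.70 for C4b, 6.44 to 7.58 for C3, 4.20 to 4.46 for Serping1, 3.67 to 5.42 for Cd55 and 4.05 to 5.04 for Cd59a. C1qa (2.97 to 3.94) lost it in 10 of 18: without a filter on low counts (adjusted p = 0.0559), with counts summed over transcripts (0.0575), with the number series as a covariate (0.0849) or within the later series, with the replicate block, and without whole astrocyte library 1, 2 or 3 or endfeet library 3 or 5. The cause was not tested. Requiring 10 counts in every library left 5 of the 8 genes (not C1qa, C1qb or C3), all called, and 12 of 15 genes of the wider list. Without single libraries, 7 to 8 of the 8 genes, 13 to 24 of the wider list, and 1757 to 3375 of all genes were higher, and 0, 0 and 1171 to 2640 lower. The wider list fell to 13 without whole astrocyte library 2 and to 15 without library 3. limma voom called 1 gene of the wider list and 4481 of all genes lower, and its share of higher calls was 46.7%, against 59.9% in edgeR and 49.8% within the later series. With the replicate number as a block, 7 of the 8 genes, 18 of the wider list and 2496 of all genes were higher, and C1ra (adjusted p = 0.0547), Masp2 (log2 fold change 0.89, adjusted p = 0.245), Fcna (0.0894) and C5ar1 (0.146) lost their calls. Same-numbered libraries correlated at -0.0343 to 0.0327 in their deviations, and 1 of 3 whole astrocyte libraries correlated best with its own number. The numbers were therefore not taken as pairs. Of the 15 other genes called, 6 kept their calls throughout. Masp2 and Fcna also lost theirs without a filter (0.0533 and 0.0506), Masp2 with summed transcripts (0.064) and Csmd3 with the series as a covariate (0.0601). Depth limits what endfeet library 6 shows, where 1 count is 0.457 CPM.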

Other observations

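Several complement genes that were not called had most of their endfeet signal in 1 library. C9 had 60 counts in endfeet library 2 and 0 in the other 5. Masp1 had 186 counts in endfeet library 4, 90.1% of its CPM summed over endfeet libraries. Cr2, the receptor for C3 fragments of B cells and follicular dendritic cells, had 296 counts in endfeet library 4 (93.5%). Itgax, an integrin of dendritic cells and activated microglia, had 80 counts in endfeet library 1 (89.8%) and 0 in whole astrocytes. Cd46 had 58 counts in endfeet library 2 (81.5%). These genes were chosen after their values were seen.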
